A study of Xenopus laevis with 5 samples.

Results

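The genes described here are the Sox, Irx, Pou and Otx transcription factor genes of the frog Xenopus laevis, together with six3 and six6, of the sine oculis homeobox family. They were taken as every probe set whose single platform symbol begins with the name of one of these 5 families, with the sox17 genes left out. This gave 44 probe sets for 36 gene copies of 31 genes, out of 15490 probe sets and 7530 named gene copies on the array. The frog is allotetraploid, and the suffixes .L and .S mark the paired copies of a gene; 23 of the copies were .L and 13 were .S. There were 13 Sox, 5 Irx, 11 Pou and 3 Otx copies and 4 copies of six3 and six6. No filter on low values was applied, so all 36 were tested.

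These families carry much of the regulatory programme of the early nervous system. SoxB1 proteins bind DNA through an HMG box and hold neural progenitors undifferentiated, class V Pou proteins of the frog delay the commitment of early cells, and class III and IV Pou proteins act in neural precursors and sensory neurons. Otx, Six3 and Six6 pattern the forebrain and eye, SoxE genes mark neural crest, and Irx genes of the Iroquois family set the territories of the neural plate in which proneural genes become active.

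Ectodermal explants were compared in 2 groups that differed in the injected gene, and transcripts were measured on 1-colour Affymetrix arrays of total RNA. The zic1 group (2 arrays) came from embryos that had received hormone-inducible zic1, a zinc-finger transcription factor active in the neural plate and at its edge; the control group (3 arrays) came from embryos that had received beta globin. All embryos were injected at the stage of 2 cells, and all also received noggin, an antagonist of BMP that neuralizes ectoderm. Explants of both groups were cut at stage 9, grown to an age equal to stage 12, held in cycloheximide for 30 min to stop protein synthesis, given dexamethasone to activate zic1, and collected 3 h later. The question was which transcripts change after zic1 is activated without new protein. An explant with zic1 but without the hormone was not analysed here, so an effect of the injected zic1 from before the hormone cannot be told apart from one after it. The samples are bulk tissue, in which fewer cells of a type and less RNA per cell cannot be told apart. The labels call the arrays of a group biological replicates without naming embryos or days, so p-values here rest on array-to-array spread, which may be technical.

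Each value is a ratio to the probe set's own median over the 5 arrays. The array of the median therefore reads exactly 1, and a gene that is higher in both zic1 arrays than in every control has its highest control at 1 if it has 1 probe set. The signal itself was not kept, so levels of different genes cannot be compared, a probe set near background cannot be recognised, and the presence of a marker of the labelled tissue cannot be checked. Precision is limited by the small number of arrays. The probe sets of zic1 carry the platform symbol zic1.S, and the labels do not say which copy was injected. In its probe set of larger difference, zic1.S read 5.28 and 5.07 with zic1 and 1.00, 0.965 and 0.699 without. In its other probe set it read 1.68 and 1.76 with zic1 and 1.00, 0.907 and 0.815 without. Whether these signals came from injected or endogenous zic1 RNA was not tested. Differences are given as log2, zic1 minus control, ± SE from limma, with p-values adjusted by Benjamini-Hochberg over a table of 13717 rows (every named gene copy as the mean log2 over its probe sets, and every probe set without a single symbol).

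Most of these genes read higher in the zic1 explants, by small amounts, and 1 copy passed the test. Of the 36 copies 31 lay above 0, where 50.0% of all 13717 rows did, and the median difference was 0.19, against -0.03 over all named gene copies. The one copy past an adjusted p of 0.05 was pou2f1.S; the share called over the whole table was 1.69%, or 1.27% in the higher direction. In the fit of single probe sets 1 of the 44 passed, the pou2f1.S probe set, where 1.41% of all did. In 17 copies both zic1 arrays lay above all 3 controls, and in 0 below them, where 19.9% and 19.5% of all rows did. At an unadjusted p under 0.05, 11 copies were higher and 0 lower (of all 13717 rows 1490, or 10.9%, were higher and 1427 lower). Differences of at least 0.5 were found in 7 copies, against 6.22% of all rows, and the 7 were sox2.L, sox9.S, sox11.S, sox18.S, pou2f1.S, pou3f2.S and pou4f4.S.

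**Figure D1:**
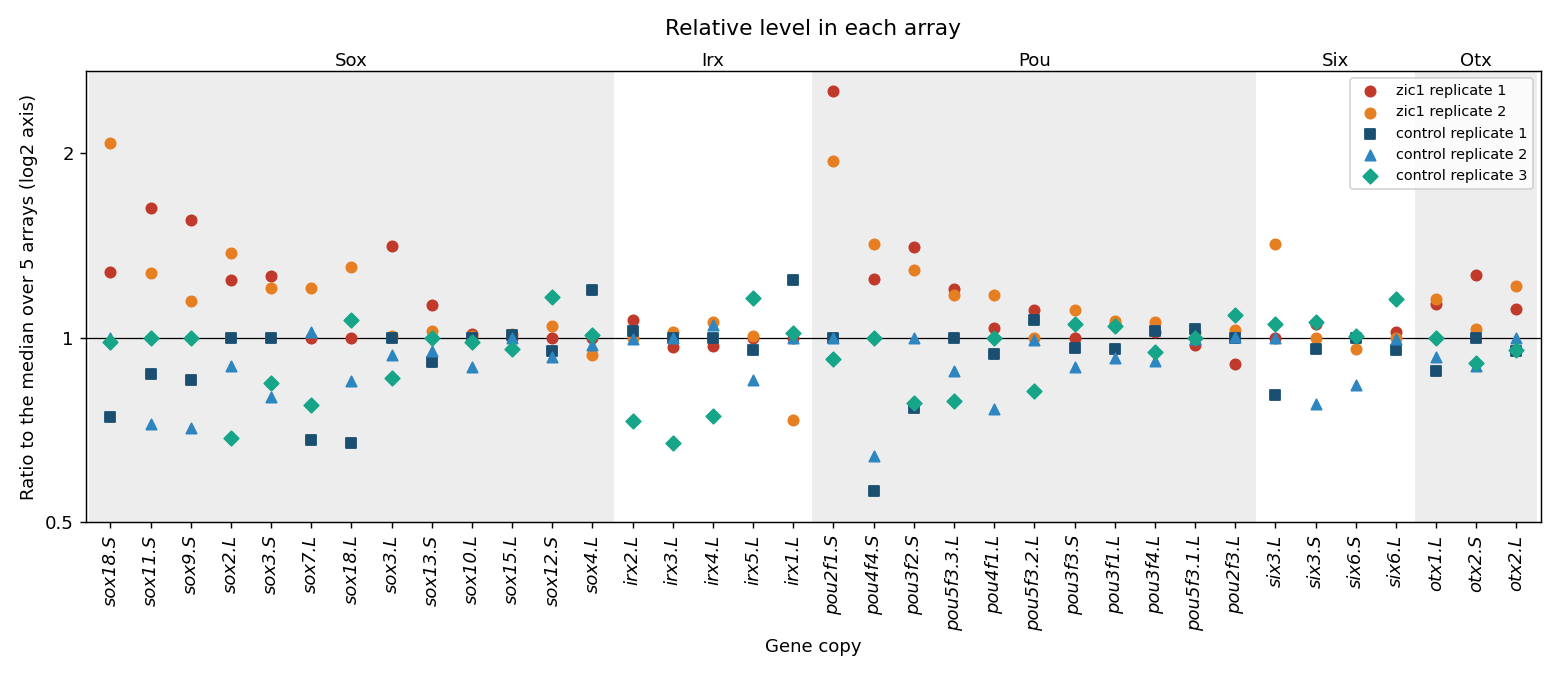
Ratio to the median over 5 arrays (log2 axis) of each of the 36 gene copies, grouped by family and ordered by difference; each symbol is 1 array. The zic1 arrays (circles) lie above all 3 controls in 17 copies, the widest gap being that of pou2f1.S at 2.52 and 1.94.

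The Pou gene pou2f1.S rose. It codes for Oct1, a broadly expressed factor that binds the octamer sequence. Its ratios were 2.52 and 1.94 with zic1 and 0.997, 1.00 and 0.924 in the controls. The controls lay close together and both zic1 arrays stood well clear of them. The difference was 1.19 ± 0.13, a fold of 2.28 with a 95% confidence interval of 1.81 to 2.86 (adjusted p = 0.0318, limma), and it ranked 115 from the top among 13717. The call rested on all 5 arrays: leaving out any 1 of them kept the difference between 1.00 and 1.38 and moved the adjusted p to between 0.0549 and 0.360. It rests on 1 probe set, and it was lost with all arrays scaled to the same spread (1.30, adjusted p = 0.0693) and without variance moderation (adjusted p = 0.246).

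The class III Pou genes, which act in neural progenitors, had 4 copies measured. All lay above 0 (50.0% of all rows did), and none passed the threshold (1.69% of all rows did). In limma pou3f2.S alone was at an unadjusted p under 0.05, where 10.9% of all rows were higher at that level. Pou3f2.S read 1.40 and 1.29 with zic1 and 0.767, 1.00 and 0.781 in the controls. The groups did not overlap, and the difference was 0.67 ± 0.14 (adjusted p = 0.0829). It passed with array weights (adjusted p = 0.0471) but not with zic1 replicate 1 and controls 1 and 2 taken as a block (0.115), equal spread of the arrays (0.104), no variance moderation (0.328) or any 1 array left out (0.120 to 0.513). The other 3 class III copies lay together at 0.12, each as the mean of 2 probe sets. As means, pou3f1.L (adjusted p = 0.475) did not overlap between groups and pou3f3.S and pou3f4.L did. The single probe sets read otherwise. Both of pou3f1.L overlapped, at 0.08 and 0.16. Those of pou3f3.S differed by 0.25 and -0.01. Those of pou3f4.L differed by 0.23, without overlap, and by 0.01.

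Of class IV, whose genes act in sensory neurons, pou4f4.S gave the larger value. It read 1.25 and 1.42 with zic1 and 0.562, 0.641 and 1.00 in the controls. Control 3 stood apart from the other controls, nearer to the zic1 arrays. The difference was 0.90 ± 0.26 (adjusted p = 0.134, limma). It passed without control 3 (1.15, adjusted p = 0.0428), with array weights (1.01, 0.0446) and with the replicate block described below (1.15, 0.00568). It did not pass with equal spread of the arrays (0.233) or without variance moderation (0.387). Whether it passed thus depended on control 3 and on the fit. As the mean of 2 probe sets, pou4f1.L read 1.03 and 1.17 against 0.941, 0.764 and 1.00, a difference of 0.30 ± 0.14 (adjusted p = 0.309), without overlap. Its probe set at 0.41 did not overlap, while that at 0.18 did.

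The class V genes, frog relatives of mammalian Oct4, were measured by 1 .L copy each. Pou5f3.3.L read 1.2 and 1.17 with zic1 and 1.00, 0.882 and 0.789 in the controls, without overlap, a difference of 0.42 ± 0.12 (adjusted p = 0.129). Pou5f3.2.L overlapped, at 1.11 and 1.00 against 1.07, 0.991 and 0.819 (0.14 ± 0.14). Pou5f3.1.L was nearly level in all arrays, from 0.972 to 1.03, and the 95% interval of its difference, -0.20 to 0.16, lay on both sides of 0. Pou2f3.L, of class II, is in mouse a gene of epidermal keratinocytes. As the mean of 2 probe sets it read 0.905 and 1.03 against 1.00, 1.00 and 1.09, overlapping (-0.09 ± 0.09, adjusted p = 0.631). Its probe sets differed in sign. In the first, at -0.30 ± 0.13, both zic1 arrays lay below every control (adjusted p = 0.262, limma). The second overlapped, at 0.12 ± 0.12. The 17 copies of the epidermal list had a mean log2 ratio of -0.32 and -0.07 with zic1. In the controls it was -0.14, 0.28 and 0.17. The part of the epidermal copies in the pou2f3.L values was not tested.

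**Figure D2:**
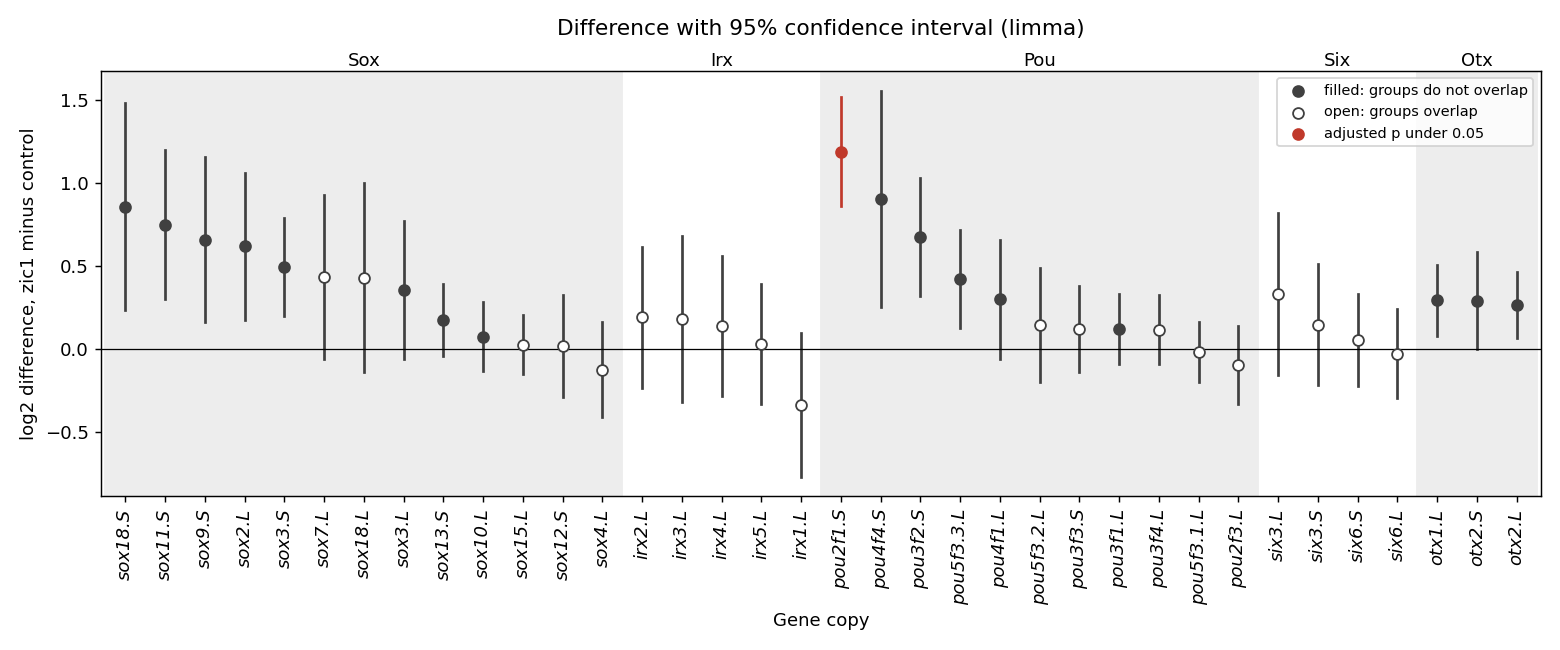
Log2 difference, zic1 minus control, of each gene copy with its 95% confidence interval from limma; filled points mark copies whose groups do not overlap, red an adjusted p under 0.05. Pou2f1.S at 1.19 is the red point, and the points of the Irx, six3 and six6 copies are all open.

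Among Sox genes other than sox17, 12 of 13 copies lay above 0, with a median of 0.43 (-0.03 over all named gene copies). In 8 of the 13 the zic1 arrays lay above every control (19.9% of all rows). None passed the threshold in limma (1.69% of all rows did). At an unadjusted p under 0.05, 5 of the 13 were higher (10.9% of all rows): sox2.L, sox3.S, sox9.S, sox11.S and sox18.S.

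All 3 SoxB1 copies, the progenitor genes, were free of overlap (19.9% of all rows were, with zic1 higher). Sox2.L, averaged over 2 probe sets, read 1.24 and 1.37 with zic1 and 1.00, 0.900 and 0.685 in the controls. Its difference was 0.62 ± 0.18 (fold 1.54, interval 1.13 to 2.09, adjusted p = 0.132, limma), and its probe sets read alike, at 0.58 and 0.66. Sox3.S read 1.26 and 1.21 against 1.00, 0.799 and 0.844, a difference of 0.49 ± 0.12 (adjusted p = 0.101). In sox3.L the zic1 arrays were uneven, at 1.41 and 1.005 against 1.00, 0.938 and 0.859. The second zic1 array thus cleared the highest control only barely, and the difference was 0.36 ± 0.16 (adjusted p = 0.299), 0.11 without zic1 replicate 1 and 0.60 without zic1 replicate 2. Control 3 was the lowest array for sox2.L and sox3.L.

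The SoxC gene sox11.S, which promotes neuronal differentiation, and the SoxE gene sox9.S, a neural crest gene, shared a profile: highest in zic1 replicate 1 and lowest in control 2. Sox3.S, sox10.L and otx2.S had the same highest and lowest arrays. Of all 13717 rows, 3083 were highest in zic1 replicate 1 and 3694 lowest in control 2. Sox11.S read 1.63 and 1.27 with zic1 and 0.873, 0.723 and 1.00 in the controls, a difference of 0.75 ± 0.18 (adjusted p = 0.101, limma). A further probe set, assigned to both sox11.L and sox11.S and so not a member, read 1.26 and 1.005 against 0.760, 0.765 and 1.00, a difference of 0.43 ± 0.17. Sox9.S read 1.56 and 1.15 against 0.852, 0.711 and 1.00, a difference of 0.66 ± 0.20 (adjusted p = 0.143). The other genes of these groups differed little. Sox4.L (-0.12 ± 0.11) was the lone copy below 0 among the 13 Sox copies described here. Of the sox17 genes left out, sox17a.L (-1.22), sox17a.S (-0.71) and sox17b.1.S (-1.86) lay lower, none past the threshold. Sox12.S lay at 0.02 ± 0.12, and sox10.L, of the neural crest, at 0.07 ± 0.08, its zic1 arrays at 1.01 and 1.01 barely above the highest control at 1.00.

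The SoxF genes sox7 and sox18, known from the development of blood vessels, had another profile. All 3 copies were highest in zic1 replicate 2 and lowest in control 1. The same held for otx1.L, otx2.L, pou4f4.S and six3.L, and control 1 was the lowest array in 2433 of all 13717 rows. Sox18.S read 1.28 and 2.08 with zic1 and 0.741, 1.00 and 0.984 in the controls, a difference of 0.86 ± 0.25 (adjusted p = 0.136). Sox18.L read 1.00 and 1.31 against 0.673, 0.850 and 1.07 and overlapped (0.43 ± 0.23). Sox7.L read 1.00 and 1.21 against 0.681, 1.02 and 0.777 and overlapped too (0.43 ± 0.20). Mesoderm and muscle genes, a list of 22 copies, had a mean log2 ratio of 0.43 and 0.55 with zic1 and of -0.12, -0.19 and 0.02 in the controls, and 15 of the 22 were highest in zic1 replicate 2. That array was highest in 2003 of all 13717 rows, and in 17 of 35 copies of other neural plate transcription factors. The part of the mesoderm and muscle genes in the SoxF values was not tested. Sox13.S, of the SoxD group, differed by 0.18 ± 0.09 without overlap, and sox15.L, described in the frog as a mediator of neural induction, was nearly level, from 0.959 to 1.01 (0.03 ± 0.07, interval -0.15 to 0.20).

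All 3 Otx copies were free of overlap (19.9% of all rows were, with zic1 higher). Otx genes specify forebrain and midbrain and, in the frog, the cement gland. Otx1.L read 1.14 and 1.16 with zic1 and 0.882, 0.928 and 1.00 in the controls (0.29 ± 0.08, adjusted p = 0.135, limma). Otx2.L read 1.11 and 1.22 against 0.951, 1.00 and 0.955 (0.27 ± 0.08, adjusted p = 0.143), with its 2 probe sets at 0.28 and 0.25. Otx2.S read 1.27 and 1.03 against 1.00, 0.900 and 0.909 (0.29 ± 0.12, adjusted p = 0.236), and this difference was 0.14 without zic1 replicate 1 and 0.44 without zic1 replicate 2. None passed the threshold (1.69% of all rows did). In limma otx1.L and otx2.L were higher at an unadjusted p under 0.05 (10.9% of all rows were). The 6 cement gland copies measured had a mean log2 ratio of -0.79 and -0.06 with zic1 and of -0.25, 0.99 and 0.12 in the controls, all 6 with differences below 0. Their part in the Otx values was not tested.

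The genes six3 and six6 of the forebrain and eye overlapped between groups in all 4 copies, where 8309 of all 13717 rows did. In limma 0 of the 4 passed the threshold (1.69% of all rows did) and 0 were at an unadjusted p under 0.05 (2917 of all rows were). Six3.L was uneven among the zic1 arrays, at 1.00 and 1.42 with zic1 and 0.806, 1.00 and 1.05 in the controls. Its difference was 0.33 ± 0.19 (interval -0.16 to 0.82), and it lay between 0.08 and 0.59 as single arrays were left out. Six3.S read 1.05 and 1.00 against 0.958, 0.780 and 1.06 (0.15 ± 0.14). Six6.L (-0.03 ± 0.11, interval -0.30 to 0.24) and six6.S (0.05 ± 0.11, interval -0.22 to 0.33) were close to 0. In six3.S, six6.L and six6.S control 3 was the highest of the 5 arrays, as it was in 3614 of all 13717 rows.

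The Irx copies also overlapped in all 5 cases, where 8309 of all 13717 rows did. In limma 0 passed the threshold (1.69% of all rows did) and 0 were at an unadjusted p under 0.05 (2917 of all rows were). Irx1.L had the lowest difference of any copy described here. It read 1.00 and 0.733 with zic1 and 1.24, 0.998 and 1.02 in the controls, -0.33 ± 0.17 (adjusted p = 0.343), with zic1 replicate 1 amid the controls and zic1 replicate 2 below them. The difference was -0.56 without zic1 replicate 1 and -0.11 without zic1 replicate 2. Irx2.L, irx3.L and irx4.L shared a single low array, control 3, at 0.730, 0.672 and 0.746, while their other 4 arrays lay between 0.964 and 1.07. Their differences of 0.19 ± 0.17, 0.18 ± 0.20 and 0.14 ± 0.17 came down to 0.04, -0.01 and -0.02 without control 3. Irx5.L ran the other way there, highest in control 3 at 1.16 and at 1.00 and 1.005 with zic1 (0.03 ± 0.14). Control 3 was also the array in which 16 of the 21 endoderm copies were highest. Their mean was 0.46 there against -0.18 to -0.05 in the other arrays. Over all 13717 rows control 3 was highest in 3614, the most of any array. The part of the endoderm copies in the Irx values was not tested.

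**Figure D3:**
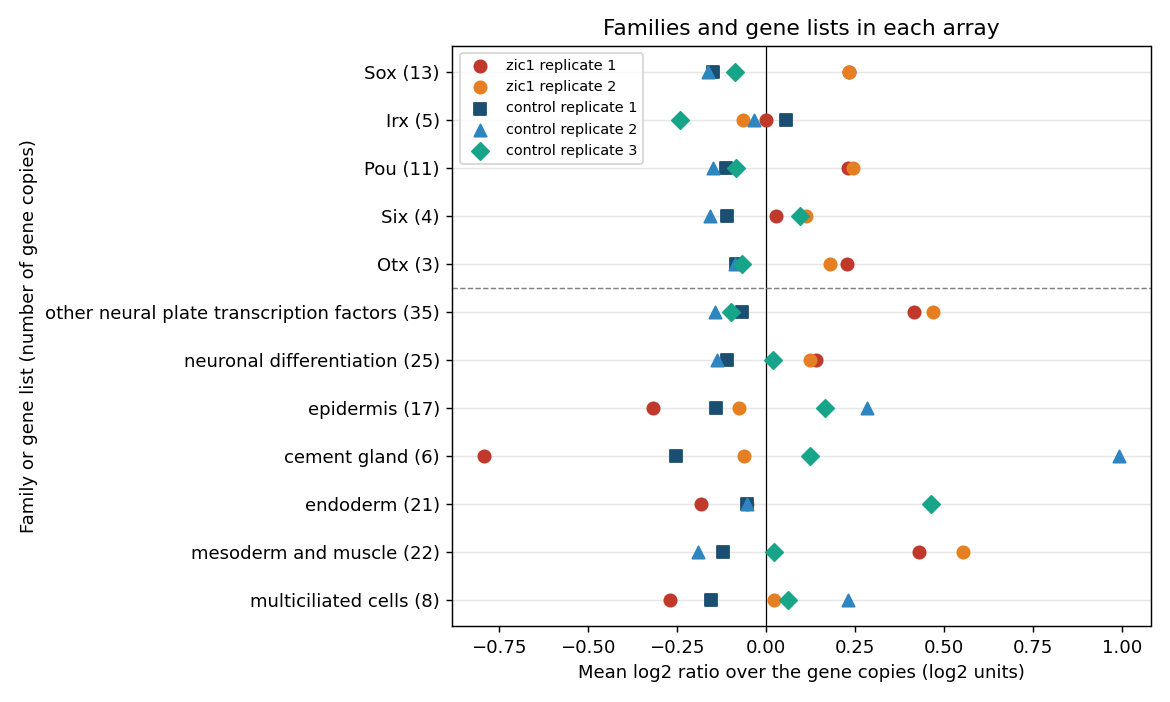
Mean log2 ratio in each array over the gene copies of the 5 families (above the dashed line) and of 7 lists of other genes (below it), with the number of copies in brackets. Sox, Pou and Otx copies lie above 0 in both zic1 arrays and below 0 in all 3 controls, Irx is lowest in control 3 at -0.24, and the endoderm list is highest there at 0.46.

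The mean log2 ratio of each family was also taken by array, and no test was made between families. The mean log2 ratio of the Sox copies was 0.23 and 0.23 with zic1 and -0.15, -0.16 and -0.09 in the controls. Pou copies averaged 0.23 and 0.24 against -0.11, -0.15 and -0.08, and Otx copies 0.23 and 0.18 against -0.08, -0.09 and -0.07. In these 3 families the array means did not overlap between groups. By median difference, however, the Pou copies (0.14) lay with the Irx copies (0.14) and near the six3 and six6 copies (0.10). The Sox (0.43) and Otx (0.29) medians were larger. The six3 and six6 copies averaged 0.03 and 0.11 against -0.11, -0.16 and 0.09, so that control 3 lay among the zic1 arrays. Irx copies averaged 0.00 and -0.07 against 0.06, -0.03 and -0.24. The Sox median stayed between 0.30 and 0.44 as single arrays were left out, whereas the Irx median was -0.01 without control 3 and that of the six3 and six6 copies -0.01 without control 2.

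Zic1 replicate 1 and controls 1 and 2 had exactly equal ratios in 788 to 944 probe sets for each pair, against 35 to 73 for every other pair of arrays. This set is seen in the values alone and is not given by the labels. Within that set the differences of sox11.S and sox9.S were 1.04 and 1.00, and between the remaining arrays, zic1 replicate 2 and control 3, they were 0.35 and 0.20. Sox2.L and sox18.S ran the other way, at 0.39 and 0.57 in the set against 1.00 and 1.08 between the other 2 arrays. Pou2f1.S (1.34 and 1.07), pou3f2.S (0.68 and 0.72), and sox3.S (0.50 and 0.52) were of like size in both. With the set as a block pou2f1.S differed by 1.22 and did not pass (adjusted p = 0.0504).

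**Figure D4:**
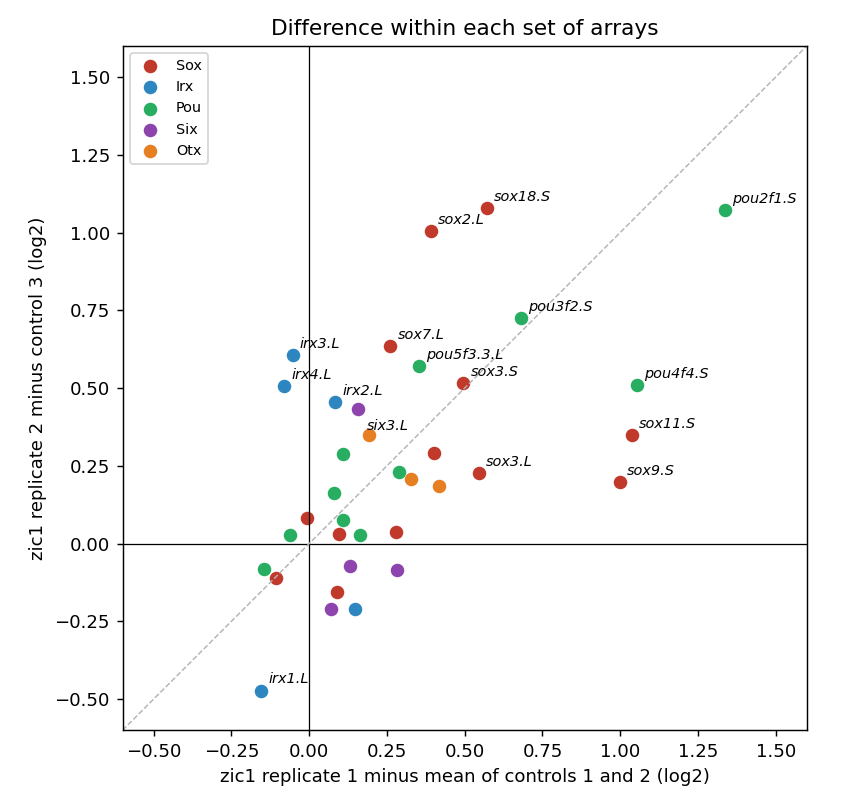
Each point is a gene copy, with its log2 difference between zic1 replicate 1 and the mean of controls 1 and 2 on the x axis and between zic1 replicate 2 and control 3 on the y axis; the dashed line marks equal differences. Pou2f1.S and pou3f2.S lie near the line, sox11.S and sox9.S far to its right, and sox2.L, irx3.L and sox18.S above it.

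Both copies were measured for 5 genes, and whether the copies of a gene differed in their response was tested on the .L minus .S difference of each array, over all 1018 such pairs on the array (limma). Over all 1018 pairs 23 passed, or 2.26%, and 221 were at an unadjusted p under 0.05. Of the 5 described here 0 passed and 1 was at an unadjusted p under 0.05, near the share over all pairs. That pair was sox18, whose .L copy differed by 0.43 less than its .S copy (-0.43 ± 0.16, interval -0.81 to -0.04, adjusted p = 0.197). The copies of otx2 were closest, at -0.03 ± 0.16 (interval -0.41 to 0.36). The intervals were -0.53 to 0.26 for sox3, -0.38 to 0.75 for six3 and -0.41 to 0.24 for six6, so differences of that size between copies were not excluded. Paired copies have similar sequences and may share signal on short probes.

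Other transcription factors of the neural plate, a list of 48 genes of which 28 had a value, had 7 of 35 copies past the threshold, all higher, where 1.69% of all rows passed. Of the 35, 34 lay above 0, with a median of 0.29, and no test was made of this list against the families above. These figures include zic1.S, which may hold signal of the injected zic1, and the list was chosen with earlier results of these data known. Besides zic1.S itself (1.74 ± 0.14 as the mean of its probe sets), the forebrain gene hesx1.S (2.15 ± 0.08), zic5.S (1.70 ± 0.21), hesx1.L (1.49 ± 0.10) and pax3.S, of the neural plate border (1.46 ± 0.10), were among the 7 past the threshold. Neuronal differentiation genes had 2 of 25 copies past the threshold, both higher. They were elavl3.L (1.66 ± 0.24), an RNA-binding protein of neurons, and insm1.L (0.96 ± 0.13), a zinc-finger factor of neuronal precursors. At an unadjusted p under 0.05 in limma, 5 of the 25 were higher and 2 lower. The lowest copy of that list, tubb2b.S, lay at -0.58 ± 0.20 and mtus1.L at -0.30 ± 0.10, neither past the threshold. Mesoderm and muscle genes had 5 of 22, all higher, led by myod1.S (2.86 ± 0.17). In limma 0 of 17 epidermal, 0 of 6 cement gland, 0 of 21 endoderm and 0 of 8 multiciliated cell copies passed. At an unadjusted p under 0.05 these lists held 0, 0, 1 and 0 higher copies and 5, 1, 1 and 0 lower copies, in the same order. Of all 13717 rows 1490, or 10.9%, were higher and 1427 lower at that level. In lists this short a count of 0 is near the share of 1.69% called over the whole table.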

How the data were processed

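The deposited values are linear ratios of 5 Affymetrix arrays. GCOS and RMA are the tools named in the submitters' processing notes, which give no version and no order. No source used here states their centring, but in all 15571 probe sets with 5 values the 5 ratios have a median of exactly 1. This leaves differences between arrays as they were and removes signal and background. Of 15572 probe sets 81 controls and 1 with missing values were left out. Symbols came from the platform annotation, and all 44 family probe sets matched the gene table under the same symbol.

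Log2 ratios, without pseudocount, were averaged per gene copy and fitted with limma 3.58.1 (lmFit, eBayes) in R 4.3.3. Probe sets and .L minus .S differences were fitted alike. The fit was run on simulated independent arrays without shared array effects. Of 100 rows changed by 1 log2 unit 72 were recovered, and of 100 changed by 2 log2 units 93, with 7 false calls. Smaller changes, such as most of those described here, were not simulated. An exact permutation over 2 against 3 arrays cannot go below 0.1. Members and lists were chosen with earlier results of these data known. Copies past the threshold, those of largest moderated t in each family (4, or 8 for Sox) and core genes were named, and up to 4 called genes per list besides zic1. Alternatives were quantile normalization, equal spread of arrays, array weights, blocks, single arrays left out, other priors, threshold, pseudocount and probe set rules. Plots used matplotlib 3.10.9 in Python 3.11.15.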

Additional observations from a re-analysis of the deposited data

How the results depend on the processing

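Counts of calls moved with most settings, while the medians of the Sox, Pou and Otx copies stayed above 0 in each. From 1 family copy, 232 rows of the gene copy table, 1 family probe set, 219 probe sets and 23 copy pairs past the threshold, the counts in that order became 2, 965, 2, 1054 and 61 at an adjusted p under 0.10, 3, 886, 3, 935 and 89 with array weights, 0, 39, 0 and 37 (pairs 26) with the set as a block, and 0, 0, 0, 0 and 1 without variance moderation (limma; 1918 rows and 7 family copies at an unadjusted p under 0.05). Equal spread of the arrays left 0 of each (2875 rows and 12 family copies unadjusted), with medians of 0.49 for Sox and 0.34 for Otx. Quantile normalization left 139 rows, 109 probe sets and 10 pairs. The robust prior left 185 rows and median or _at probe set rules 212 and 185. With single arrays left out the counts ran from 0 to 1 family copies, 0 to 309 rows, 0 to 1 family probe sets, 0 to 207 probe sets and 1 to 90 pairs, a lone zic1 array being assumed to vary like the controls; without control 3 the family copy past the threshold was pou4f4.S, not pou2f1.S. Copies without overlap then numbered 20 to 27, since fewer arrays overlap less. Medians over these fits ran from 0.30 to 0.44 (Sox), 0.17 to 0.23 (Pou), 0.25 to 0.31 (Otx), -0.0050 to 0.17 (six3 and six6), -0.011 to 0.23 (Irx) and 0.17 to 0.24 (all 36). With all arrays the Pou median was 0.14, below its range here. The median of all 36 was 0.24 with the set as a block. A pseudocount of 1 shrank medians by construction to 0.21 (Sox), 0.070 (Pou), 0.15 (Otx) and 0.089 (all 36).

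The replicate block, on numbers shared by 2 pairs of arrays only, left 1 residual degree of freedom and gave 12 family copies (11 higher, and irx1.L lower), 2545 rows, 12 family probe sets, 2692 probe sets and 218 pairs, with an Irx median of -0.011. Deviations of same-numbered arrays correlated at 0.32 (number 1) and 0.28 (number 2), which does not establish a pairing, and control 3 does not enter that fit's difference.

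Signs turned in 7 copies that did not pass the threshold, among them irx3.L and irx4.L, which lay at 0.18 and 0.14. Their values after the turn were irx3.L (-0.011), irx4.L (-0.016) and six6.L (0.054) with the replicate block, six6.L (0.0082) with array weights, and irx5.L (-0.0053) and sox12.S (-0.016) with the set as a block. With single arrays left out irx3.L ran from -0.011 to 0.28, irx4.L from -0.016 to 0.23, irx5.L from -0.071 to 0.15, six6.L from -0.085 to 0.054, six6.S from -0.034 to 0.10, sox12.S from -0.041 to 0.12 and pou5f3.1.L from -0.054 to 0.016. The cause of these changes was not tested. The filter on low values was not run, because the ratios keep no level.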

Other observations

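No family copy had its highest value in control 2, which was the highest array for 2785 of all 13717 rows, while 13 of the 36 copies had their lowest value there, the most of any array (3694 of all rows). These are counts without a test. For 5 copies the platform holds a probe set named S1 and another named A1 for 1 cluster. For pou2f3.L their differences were -0.30 and 0.12, for pou3f3.S 0.25 and -0.01, for pou4f1.L 0.41 and 0.18, for six3.S 0.19 and 0.10, and for pou3f1.L 0.08 and 0.16. None of these 10 probe sets passed the threshold in limma (1.41% of all probe sets did), and 1 was at an unadjusted p under 0.05. The mean over both stands as the value of the copy above.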
